A study of Homo sapiens with 16 samples.

Results

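CCN1, CCN2 and THBS1, with ANKRD1, AMOTL1, AMOTL2, AXL, LATS2, AJUBA and YAP1 itself, form a set of 10 of the 18332 genes in the table, 9 of them known transcriptional targets of the coactivator YAP. They were selected on their measured values in all 4 groups of this study, so their levels and differences are given as a description, without a test. The study grew MDA-MB-231 cells and, as a second line, MDA-MB-468 cells, both of them human breast cancer lines negative for the estrogen receptor, in medium with 5 mM (low) or 25 mM (high) glucose for 48 hours and sequenced their polyadenylated RNA. Each of the 4 groups had 4 replicates, making 16 samples, and per the study's methods the medium held no serum and cells were kept in low glucose before the switch to 25 mM. A difference between the lines is a difference between these 2 lines only. Per the methods, MDA-MB-231 cells were maintained in DMEM and MDA-MB-468 cells in RPMI, so line and maintenance medium cannot be told apart. In some experiments mannitol was added to the 5 mM control to match osmolarity, and the methods do not say so for these samples. The labels number the replicates and name no separate cultures, days or animals. Every p-value therefore measures only the spread between these samples, which may be technical.

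YAP and its paralog TAZ (encoded by WWTR1) are coactivators without DNA-binding domains of their own. They bind TEAD transcription factors at DNA and switch on genes for matricellular proteins, cytoskeletal regulators and growth factors. The Hippo kinases MST1 and MST2 (encoded by STK4 and STK3) activate LATS1 and LATS2, which phosphorylate YAP and TAZ and hold them in the cytoplasm. The pathway responds to cell density, attachment, actin tension, serum lipids and energy state, and several of its targets, among them LATS2, AMOTL2 and AJUBA, encode proteins that act back on it. MDA-MB-231 cells are known to carry an inactivating mutation of NF2, an upstream activator of the kinases. An mRNA level does not report the phosphorylation or the location of YAP.

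The upstream sequences of 3 members that were lower in high glucose in both lines are shown because the TEAD motif can be read in them directly. They are the 250 bases before the RefSeq gene start on GRCh38.p14, read 5′ to 3′ on the strand of the gene, with every GGAATG or its reverse complement CATTCC, the core of the TEAD motif, in capitals. They lie at chr6:131951373-131951622 on the minus strand for CCN2, chr15:39580829-39581078 on the plus strand for THBS1 and chr10:90921088-90921337 on the minus strand for ANKRD1.
CCN2: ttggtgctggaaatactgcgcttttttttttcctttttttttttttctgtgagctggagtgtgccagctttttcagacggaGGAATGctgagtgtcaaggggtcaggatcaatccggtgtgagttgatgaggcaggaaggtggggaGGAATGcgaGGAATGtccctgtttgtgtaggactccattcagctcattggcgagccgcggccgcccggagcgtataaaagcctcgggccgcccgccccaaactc
THBS1: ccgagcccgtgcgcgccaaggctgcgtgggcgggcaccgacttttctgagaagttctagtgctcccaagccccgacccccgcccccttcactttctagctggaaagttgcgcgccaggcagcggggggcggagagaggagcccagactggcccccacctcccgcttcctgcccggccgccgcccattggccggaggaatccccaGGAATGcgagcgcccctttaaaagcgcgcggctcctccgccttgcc
ANKRD1: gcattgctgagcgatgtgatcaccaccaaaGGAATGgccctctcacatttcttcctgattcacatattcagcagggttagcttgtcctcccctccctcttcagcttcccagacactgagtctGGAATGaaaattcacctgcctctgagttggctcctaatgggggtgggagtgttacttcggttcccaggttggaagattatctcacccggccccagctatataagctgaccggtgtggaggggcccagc
In the numbering used here, -1 is the base before the gene start. CCN2 carried 3 core motifs, beginning at -169, -104 and -95. ANKRD1 carried 2, at -220 and -128, and THBS1 carried 1, at -46. Windows of 250 bases before to 50 after the start were held for 9 of the 10 genes (all but CCN1), in 12 windows, since AMOTL2, AXL and AJUBA have a second annotated start. The core was found on either strand in at least 1 window of 8 of these 9 genes, and in 8 of the 12 windows. It began at -162 in YAP1, at -59 in the second window of AJUBA, at -69 in the second window of AMOTL2, at -212 in the second window of AXL and at 10 in LATS2, and these letters were not in the AMOTL1 window. Of 35116 RefSeq promoter windows of the same length, 14% held the core at least once and 1.37% at least 2 times. The AP-1 motif TGANTCA, whose factors often share enhancers with TEADs, was in 7.71% of all windows and, among the members, in ANKRD1 only, at -195. The CArG box, the motif of serum response factor (SRF), which drives the actin genes described later, was in 1.29% of all windows and in none of the members'. A motif match is a description of the sequence and does not show binding.

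CCN1 (formerly CYR61), CCN2 (formerly CTGF) and THBS1 encode secreted matricellular proteins, 2 cysteine-rich growth factor-binding proteins and thrombospondin 1, which bind integrins and other receptors at the cell surface. On hg19 they lie at chr1:86046444-86050272, chr6:132269316-132272512 and chr15:39873280-39891667. All 3 were lower in high glucose than in low glucose in both lines, by a similar proportion of 1.42-fold to 1.56-fold, although MDA-MB-231 cells held 6.82 to 10.7 times as much of their mRNA as MDA-MB-468 cells. Values are normalized read counts, that is, reads per gene divided by each library's size factor, for replicates 1 to 4 in turn.

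CCN1 stood at 10967, 10949, 10953 and 10675 in MDA-MB-231 low glucose and at 7749, 7723, 7631 and 7469 in high glucose. Every high glucose sample was below every low glucose sample. The means were 10886 ± 141 in low and 7643 ± 126 in high glucose (SD, n = 4), a 1.42-fold lower level and a log2 difference of -0.51 ± 0.026 (SE). In MDA-MB-468 cells, CCN1 stood at 1551, 1603, 1616 and 1611 in low and at 1043, 1095, 1178 and 1132 in high glucose, again without overlap, with means of 1595 ± 30.1 in low and 1112 ± 57.1 in high glucose (SD, n = 4) and a log2 difference of -0.52 ± 0.041 (SE). The MDA-MB-468 difference minus the MDA-MB-231 difference was -0.011 ± 0.043 (SE) on the log2 scale, smaller than its own error.

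CCN2 stood at 9215, 8932, 8956 and 9174 in MDA-MB-231 low glucose and at 6173, 6408, 6201 and 6195 in high glucose. The groups did not overlap. Its means were 9069 ± 146 in low and 6244 ± 109.8 in high glucose (SD, n = 4), 1.45-fold lower, with a log2 difference of -0.54 ± 0.027 (SE). In MDA-MB-468 cells the 4 values were 1094, 1074, 1069 and 1113 in low and 688, 729, 655 and 719.9 in high glucose. There too the groups were apart, with means of 1087 ± 20.2 in low and 698 ± 33.6 in high glucose (SD, n = 4), 1.56-fold lower, a log2 difference of -0.64 ± 0.044 (SE). The 2 lines' log2 differences were -0.10 ± 0.043 (SE) apart, the MDA-MB-468 one being the larger, and -0.18 apart under quantile scaling.

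THBS1 was the most abundant of the 3 by reads, at 22044, 20828, 21712 and 21901 in MDA-MB-231 low glucose and 15549, 14384, 14942 and 15032 in high glucose. Its means were 21621 ± 546 in low and 14977 ± 477 in high glucose (SD, n = 4), 1.44-fold lower, a log2 difference of -0.53 ± 0.029 (SE). In MDA-MB-468 cells it stood at 2060.0, 1900.0, 2082 and 2075 in low and 1398, 1426, 1479.9 and 1377 in high glucose, and the highest of these high glucose values was below the lowest low glucose value, as in MDA-MB-231 cells. The means were 2029 ± 86.7 in low and 1420.2 ± 44.4 in high glucose (SD, n = 4), 1.43-fold lower, with a log2 difference of -0.51 ± 0.039 (SE). The log2 differences of the 2 lines were 0.016 ± 0.047 (SE) apart, and both this value and that of CCN1 crossed 0 when single replicates were left out, from -0.016 to 0.034 for THBS1 and from -0.039 to 0.019 for CCN1.

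**Figure D1:**
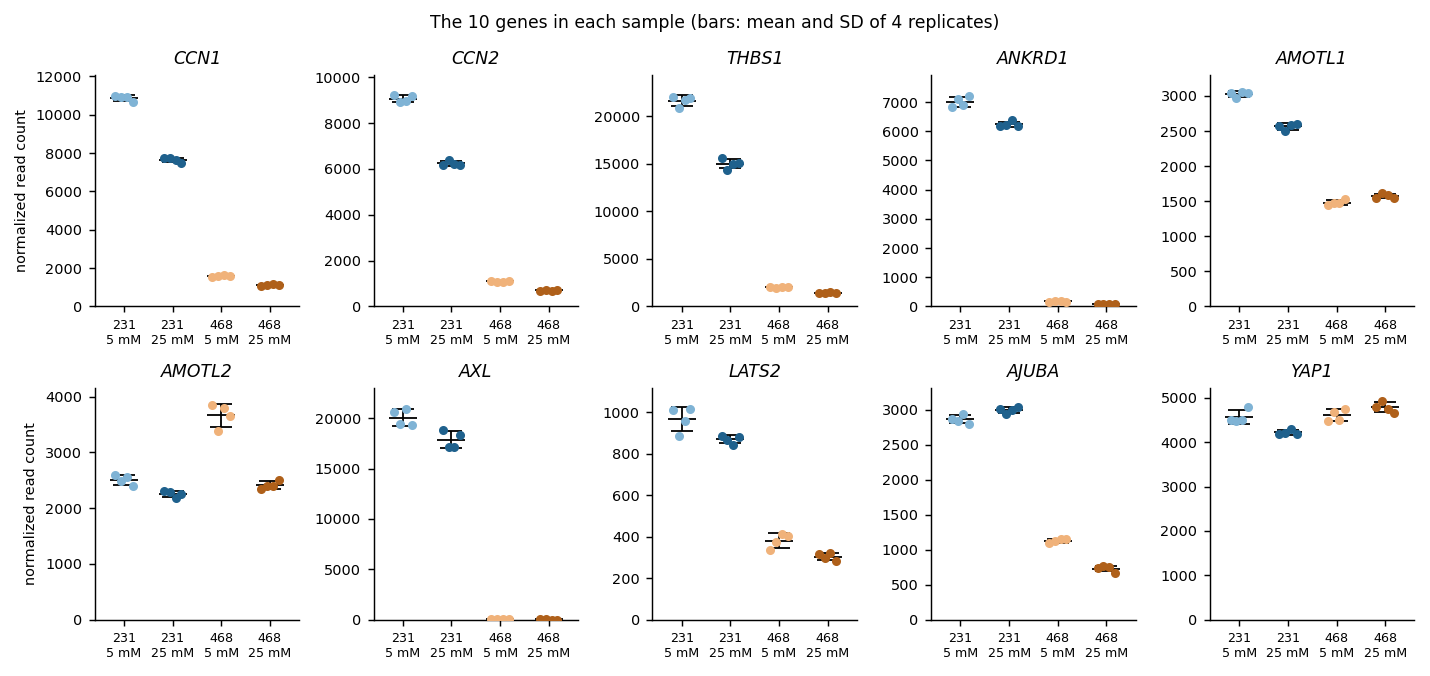
Normalized read counts (vertical axes, linear from 0) of the 10 genes in each of the 16 samples, with the groups of each line at 5 and 25 mM glucose (MDA-MB-231 left, MDA-MB-468 right) on the horizontal axes. Points are replicates 1 to 4 from left to right and bars give the mean and SD. CCN1, CCN2 and THBS1 are lower at 25 mM in both lines without overlap, whereas YAP1 stays between 4179 and 4941 in all samples.

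ANKRD1, a nuclear and sarcomeric ankyrin repeat protein and one of the most used readouts of YAP activity, lies at chr10:92671853-92680844 (hg19). It was lower in high glucose in both lines, but by unequal proportions. In MDA-MB-231 cells it stood at 6849, 7092, 6906 and 7209 in low and 6186, 6207, 6379 and 6172 in high glucose, 1.12-fold lower with a log2 difference of -0.17 ± 0.028 (SE). In MDA-MB-468 cells the values were 167, 200.2, 191 and 154 in low and 84.6, 79.7, 74.4 and 71.6 in high glucose, 2.29-fold lower with a log2 difference of -1.18 ± 0.11 (SE). The groups did not overlap in either line. The means lay at very different levels, 7014 ± 166 in low and 6236 ± 96.6 in high glucose in MDA-MB-231 against 178 ± 21.4 in low and 77.6 ± 5.74 in high glucose in MDA-MB-468 cells (SD, n = 4), and the log2 differences of the lines were -1.01 ± 0.095 (SE) apart. The counts of MDA-MB-468 cells are few, and their relative error is the larger.

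The angiomotin-like genes AMOTL1 (chr11:94439597-94609913, hg19) and AMOTL2 (chr3:134074189-134094321, hg19) encode junctional scaffolds that bind YAP and hold it outside the nucleus. AMOTL2 stood at 2604, 2485, 2551 and 2394 in MDA-MB-231 low glucose and 2308, 2282, 2179.9 and 2246 in high glucose, a log2 difference of -0.15 ± 0.035 (SE). In MDA-MB-468 cells it stood at 3851, 3389, 3792 and 3647 in low and 2336, 2403, 2401 and 2503 in high glucose, 1.52-fold lower with a log2 difference of -0.60 ± 0.039 (SE). Both pairs of groups were without overlap, and AMOTL2 was the 1 member with a clearly higher level in MDA-MB-468 than in MDA-MB-231 low glucose.

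AMOTL1 differed in opposite directions in the 2 lines. In MDA-MB-231 cells it was lower in high glucose, 2577, 2500.2, 2591 and 2606 against 3042, 2975, 3061 and 3038 in low glucose, a log2 difference of -0.24 ± 0.031 (SE). In MDA-MB-468 cells it was higher, 1544, 1615, 1592 and 1547 against 1441, 1475, 1476 and 1526, a log2 difference of 0.09 ± 0.035 (SE). No sample of one glucose group crossed into the other in either line. The difference in MDA-MB-468 cells was the smaller, 1.06-fold, and it became 0.18 after correction for transcript length. On the length-scaled TPM scale the MDA-MB-468 levels were 24.4 ± 0.784 in low and 24.8 ± 0.906 in high glucose, closer than their SD.

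LATS2 (chr13:21547175-21635725, hg19) encodes a kinase that inhibits YAP and is itself a YAP target, and AJUBA (chr14:23440386-23451760, hg19) a LIM protein that binds LATS kinases at junctions. LATS2 had values of 1009.6, 887, 959 and 1015 in MDA-MB-231 low glucose and 887, 867, 843 and 879.8 in high glucose, where the second low glucose replicate lay at the level of the highest high glucose one. The log2 difference was -0.15 ± 0.048 (SE). In MDA-MB-468 cells LATS2 stood at 334, 376, 411 and 402 in low and 316, 297, 320.5 and 281 in high glucose, without overlap, a log2 difference of -0.32 ± 0.073 (SE). AJUBA showed little difference in MDA-MB-231 cells, with 2862, 2843, 2944 and 2801 in low and 3005, 2934, 2998 and 3034 in high glucose and groups that overlapped, a log2 difference of 0.064 ± 0.031 (SE). In MDA-MB-468 cells it was 1.55-fold lower in high glucose, 742, 760.3, 749 and 669 against 1092, 1125, 1147 and 1158, a log2 difference of -0.63 ± 0.046 (SE). The log2 differences of AJUBA in the 2 lines were -0.70 ± 0.05 (SE) apart.

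AXL (chr19:41725128-41767671, hg19) encodes a receptor tyrosine kinase for the ligand GAS6. In MDA-MB-231 cells it was among the most abundant mRNAs of the set, at 20649, 19433, 20868 and 19281 in low and 18815, 17170.2, 17189 and 18342 in high glucose, a log2 difference of -0.17 ± 0.035 (SE) without overlap. In MDA-MB-468 cells AXL was barely detected, at 30.1, 24.3, 23.6 and 30.5 in low and 19.4, 24.0, 14.9 and 15.2 in high glucose. These groups overlapped and counting error alone is large at such levels, so that the log2 difference of -0.55 ± 0.23 (SE) has little precision. YAP1 (chr11:101981178-102104155, hg19), the coactivator itself, stood at 4499, 4487, 4509 and 4807 in MDA-MB-231 low glucose and at 4193, 4208, 4308 and 4179 in high glucose, a log2 difference of -0.12 ± 0.031 (SE) without overlap, which was -0.070 under quantile scaling. In MDA-MB-468 cells it was 4486, 4680.4, 4500.5 and 4759 in low and 4798, 4941, 4762 and 4660.5 in high glucose, with overlapping groups and a log2 difference of 0.057 ± 0.031 (SE), which ranged down to 0.0205 over the alternatives, under quantile scaling. Its mRNA differed by 1.08-fold at most between glucose groups, less than the 1.42-fold of CCN1.

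Counted over the set, 8 of 10 members were lower in high glucose without overlap in MDA-MB-231 cells and none was higher, where 11.1% of the 14884 genes tested there were lower and 7.63% higher without overlap. In MDA-MB-468 cells 7 members were lower and 1, AMOTL1, was higher without overlap, against 20.4% and 22.2% of 15757 genes. With limma and a Benjamini-Hochberg adjusted p under 0.05 as the limit, 9.37% of genes fell (1395) and 5.71% rose (850) in MDA-MB-231 cells, and 22.7% fell (3570) and 24.9% rose (3925) in MDA-MB-468 cells. Under quantile scaling the split was 1114 lower and 1027 higher in MDA-MB-231 cells, and 3801 lower and 3646 higher in MDA-MB-468 cells, where it turned the majority. Of the members, 9 were on the lower side of that limit in MDA-MB-231 cells, and 7 on the lower and 1 on the higher side in MDA-MB-468 cells. For the difference between the lines' responses, 17.0% of 17115 genes passed with a larger and 13.9% with a smaller value in MDA-MB-468 cells, and 2 and 3 members did. Under quantile scaling the larger values numbered 2680 and the smaller 2779. Since the members were selected on these contrasts, nothing is read from their counts.

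Sums of markers of cell state differed between glucose groups beside these genes. Such a sum follows its most abundant genes and does not show that each marker moved. The summed normalized count of 5 mesenchymal markers was 129521 to 136824 in low and 120154 to 121214 in high glucose in MDA-MB-231 cells, and 740.2 to 816 in low and 650.1 to 724 in high glucose in MDA-MB-468 cells, lower without overlap in both. The sum of 7 epithelial markers was 97276 to 103284 in low and 114029 to 123771 in high glucose in MDA-MB-468 cells, higher without overlap, and overlapped in MDA-MB-231 cells (27738 to 31031 against 29654 to 30879.5). Of markers of other cell types, COL1A1 and the leukocyte gene PTPRC summed to 248.6 to 274 in low and 278 to 343 in high glucose in MDA-MB-468 cells and overlapped in MDA-MB-231 cells. In MDA-MB-468 low glucose most of the mesenchymal sum was FN1. The part of these shifts in the members' glucose differences was not tested.

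**Figure D2:**
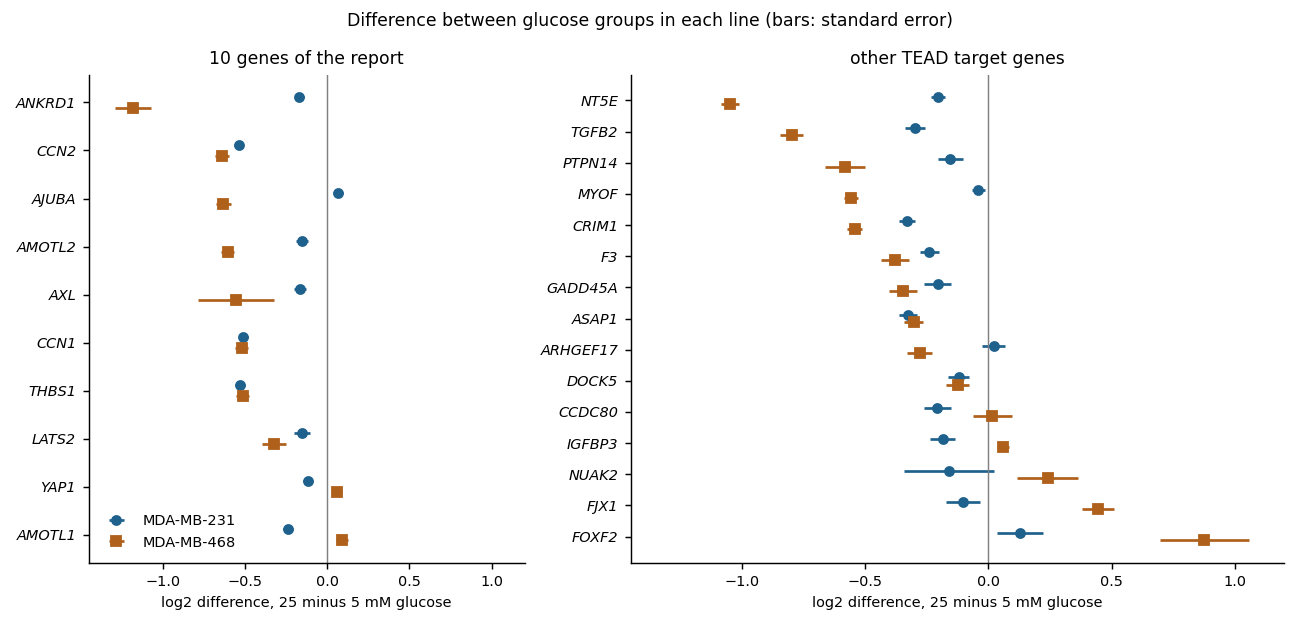
Log2 difference between 25 and 5 mM glucose (horizontal axes, with SE) of the 10 genes (left) and of 15 other TEAD target genes tested in both lines (right), drawn as circles for MDA-MB-231 and as squares for MDA-MB-468 cells. CCN1 and THBS1 sit at the same place in both lines, between -0.53 and -0.51, whereas ANKRD1, AJUBA and AMOTL2 lie farther left in MDA-MB-468 cells and FOXF2 and FJX1 lie to the right.

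Other known TEAD targets, a list of 16 genes outside the 10 members, were tested in the fit over all genes. Like the members, this list and those that follow were chosen with earlier results of these data known, so their counts are not independent evidence of a direction. Over all genes tested, 9.37% fell and 5.71% rose in MDA-MB-231 cells, and 22.7% fell and 24.9% rose in MDA-MB-468 cells. In MDA-MB-231 cells 9 of 16 fell and none rose, with a median log2 difference of -0.17 against 0.0017 over all genes. In MDA-MB-468 cells 10 of 15 tested fell and 2 rose, with a median of -0.30 against 0.00011 over all genes. The 9 calls in MDA-MB-231 cells numbered 7 to 9 when single replicates were left out.

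CRIM1, which encodes a membrane protein that binds bone morphogenetic proteins, fell in each line, going from 6691 to 5329 normalized counts in MDA-MB-231 cells (log2 difference -0.33 ± 0.032, adjusted p = 1.76e-06) and 5354 to 3677 in the other line (-0.54 ± 0.03, adjusted p = 6.74e-10). ASAP1, which encodes an Arf GTPase-activating protein of focal adhesions, fell in MDA-MB-231 cells (-0.33 ± 0.037, adjusted p = 9.33e-06) and also in the other line (-0.30 ± 0.039, adjusted p = 7.23e-06). NT5E, the ectonucleotidase CD73, fell in both lines and by more in MDA-MB-468 cells (-1.05 ± 0.036, adjusted p = 3.88e-12) than in MDA-MB-231 cells (-0.21 ± 0.028, adjusted p = 5.36e-05), and the difference between the lines passed its own test (adjusted p = 3.73e-10, limma). TGFB2, a ligand of the transforming growth factor β family, fell by 0.80 on the log2 scale in MDA-MB-468 cells (adjusted p = 7.93e-10) and by 0.30 in MDA-MB-231 cells (adjusted p = 8.44e-05). MYOF, a membrane repair ferlin, fell in MDA-MB-468 cells (-0.56 ± 0.028, adjusted p = 1.95e-10) and had a log2 difference of -0.041 ± 0.025 in MDA-MB-231 cells (adjusted p = 0.317).

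FJX1 and FOXF2 rose in MDA-MB-468 cells. FJX1, a secreted regulator of planar polarity, went from 305 ± 10.2 to 416 ± 31.9 normalized counts (SD, n = 4, adjusted p = 2.83e-05), and FOXF2, a forkhead factor of mesenchymal cells, from 23.2 ± 2.56 to 43.3 ± 3.59 (SD, n = 4, adjusted p = 0.000778). In MDA-MB-231 cells their log2 differences were -0.10 ± 0.07 and 0.13 ± 0.093 (SE), with adjusted p = 0.367 and 0.41. IGFBP3, a carrier of insulin-like growth factors, fell in MDA-MB-231 cells (-0.19 ± 0.051, adjusted p = 0.0202), a call lost in 5 of 18 alternatives, among them leaving out low glucose replicate 3 (adjusted p = 0.0594), high glucose replicate 3 (0.0572) or high glucose replicate 4 (0.0556). Its log2 difference in MDA-MB-468 cells was 0.059 ± 0.026 (adjusted p = 0.0707). For the difference between the lines' responses 9 of the 16 passed, 6 lower and 3 higher in MDA-MB-468 cells. Of all genes tested, 13.9% were lower and 17.0% higher.

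Of the factors that YAP partners with or competes with, 8 of 9 listed genes were in the table. WWTR1, the gene of TAZ, fell slightly in MDA-MB-231 cells (-0.14 ± 0.029, adjusted p = 0.00371) and in the other line (-0.19 ± 0.032, adjusted p = 0.000129). TEAD1 fell as well, with 4704 ± 159.9 against 4113 ± 108 in MDA-MB-231 cells (SD, n = 4, adjusted p = 0.000497) and 2227 ± 99.0 against 1622 ± 95.3 in MDA-MB-468 cells (SD, n = 4, adjusted p = 3.3e-07), and by more in the latter (difference of log2 differences -0.26 ± 0.058, adjusted p = 0.00211). TEAD2 and TEAD3 rose in MDA-MB-468 cells, TEAD2 from 1351 ± 53.8 to 1756 ± 53.7 (SD, n = 4, adjusted p = 6.18e-07) and TEAD3 from 1182 ± 42.3 to 1360.4 ± 68.1 (SD, n = 4, adjusted p = 0.00104).

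In MDA-MB-231 cells TEAD2 and TEAD3 had log2 differences of -0.0099 ± 0.054 and 0.025 ± 0.055 (SE). TEAD4 passed in neither line (adjusted p = 0.204 and 0.345). VGLL1, a TEAD cofactor that competes with YAP for the same surface, rose in MDA-MB-468 cells, from 3619.9 ± 171 to 4195 ± 82.9 (SD, n = 4, adjusted p = 8.65e-05), and was at 0 in all 8 MDA-MB-231 libraries, which allows 3 reads, or 0.123 to 0.213 CPM over the libraries of the study. VGLL3, a relative of VGLL1, showed the opposite presence, with 189 to 236 in MDA-MB-231 low glucose and 0 to 0.875 in MDA-MB-468 low glucose. Altogether 2 of 7 tested fell and none rose in MDA-MB-231 cells, and 2 fell and 3 rose of 7 in MDA-MB-468 cells, with medians of -0.14 and 0.070. The shares over all genes were 9.37% lower and 5.71% higher in MDA-MB-231 cells, and 22.7% and 24.9% in MDA-MB-468 cells.

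Of the kinases and scaffolds of the Hippo pathway, 3 of 16 tested fell and 1 rose in MDA-MB-231 cells. The shares over all genes were 9.37% and 5.71%. The riser was SAV1, the scaffold of the MST kinases (0.22 ± 0.035, adjusted p = 0.000289), and FRMD6, an upstream activator, fell (-0.20 ± 0.031, adjusted p = 0.000268). NF2, with 299.9 ± 19.9 in low and 256 ± 21.1 in high glucose (SD, n = 4), passed narrowly (adjusted p = 0.0497), and lost the call in 13 of 18 alternatives, among them leaving out any replicate but low glucose replicate 4 or high glucose replicate 2, with adjusted p = 0.0695 to 0.145. The count of 4 was 2 when low glucose replicate 1 or 2 or high glucose replicate 1, 3 or 4 was left out. It was also 2 without a filter on low values, under TMM or quantile scaling, with a replicate block and after correction for transcript length.

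In MDA-MB-468 cells 7 of 16 fell and 4 rose, against 22.7% and 24.9% of all genes tested. LATS1, the paralog of LATS2, rose from 328 ± 7.99 to 449 ± 40.9 (SD, n = 4, adjusted p = 3.09e-05), opposite to the lower LATS2, and was 700.0 ± 47.9 and 754 ± 26.9 in MDA-MB-231 cells (adjusted p = 0.195). WTIP, a relative of AJUBA, and MAP4K4, a kinase acting on LATS, also rose (0.47 ± 0.13, adjusted p = 0.0084 and 0.31 ± 0.047, adjusted p = 5.07e-05). STK4 (MST1) and TAOK3, an activator of MST kinases, fell (-0.30 ± 0.042, adjusted p = 2.45e-05 and -0.37 ± 0.04, adjusted p = 9.58e-07). NF2 had a log2 difference of -0.098 ± 0.061 (adjusted p = 0.198). WWC1, the KIBRA scaffold, fell by 0.14 (adjusted p = 0.000572).

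AMOT, the third angiomotin, rose in MDA-MB-468 cells by 0.08 on the log2 scale (adjusted p = 0.0443), a call lost in 13 of 18 alternatives and in 7 of the 8 that left out 1 replicate, with adjusted p = 0.0531 to 0.128 in those 7, the exception being high glucose replicate 4. In MDA-MB-231 cells AMOT stood at 3.35 to 5.87 counts in low glucose. The median log2 difference of the list was -0.056 in MDA-MB-231 cells and -0.076 in the other line.

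SRF and its cofactors MRTFA and MRTFB drive actin and contractility genes and share targets with YAP. In MDA-MB-231 cells 6 of 15 of this list fell and none rose, against 9.37% and 5.71% of all genes tested. The count of 6 was 3 under quantile scaling. MYH9, the heavy chain of non-muscle myosin IIA, fell in MDA-MB-231 cells (-0.26 ± 0.037, adjusted p = 9.68e-05) and likewise in MDA-MB-468 cells (-0.14 ± 0.027, adjusted p = 0.000307). In MDA-MB-231 cells the actins ACTB and ACTG1 fell by 0.14 and 0.18 on the log2 scale (adjusted p = 0.00508 and 0.000736), calls lost under quantile scaling with adjusted p = 1 and 0.836. SRF fell by 0.15 (adjusted p = 0.0412), and the call was lost in 10 of 18 alternatives, among them leaving out any of low glucose replicates 1 to 3 or high glucose replicates 1 to 3, with adjusted p = 0.0553 to 0.136.

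In MDA-MB-468 cells 4 of 13 of the SRF list rose and 4 fell, against 24.9% and 22.7% of all genes tested. FHL2, a LIM coactivator, and VCL, the focal adhesion protein vinculin, rose (0.31 ± 0.043, adjusted p = 1.93e-05 and 0.17 ± 0.034, adjusted p = 0.000607), and so did ACTB (0.14 ± 0.026, adjusted p = 0.000345). TPM1, a tropomyosin, fell (-0.59 ± 0.03, adjusted p = 2.82e-10), as did FLNA, filamin A (-0.19 ± 0.031, adjusted p = 0.000103), and MRTFB (-0.16 ± 0.055, adjusted p = 0.0223). The MRTFB call was lost without low glucose replicate 2 (0.0627), low glucose replicate 4 (0.0722) or high glucose replicate 1 (0.0815), and after correction for transcript length (0.268). ACTG1 had a log2 difference of 0.034 ± 0.031 (adjusted p = 0.387), which turned to -0.082 (adjusted p = 0.00534) under quantile scaling. The responses differed between the lines for 7 of 15, of which 6 were higher in MDA-MB-468 cells. Of all genes tested, 30.9% differed, 17.0% being higher there. MYL9, a myosin light chain, was found in MDA-MB-231 cells at 1056 to 1118 in low glucose and at 0 in all 4 MDA-MB-468 low glucose libraries.

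Among relatives of the members, CCN3 did the opposite of CCN1 and CCN2 in MDA-MB-231 cells. It rose from 438 ± 25.8 to 533 ± 17.1 (SD, n = 4, log2 difference 0.28 ± 0.056, adjusted p = 0.00189), and fell from 124 ± 15.3 to 79.3 ± 4.66 in MDA-MB-468 cells (-0.63 ± 0.11, adjusted p = 0.000235). The difference between the lines passed its own test (-0.92 ± 0.11, adjusted p = 9.22e-06). THBS2 fell in MDA-MB-231 cells (-0.40 ± 0.11, adjusted p = 0.0186), a call lost without low glucose replicate 1 (0.0659) or high glucose replicate 3 (0.0566). THBS3 fell in MDA-MB-468 cells (-0.25 ± 0.083, adjusted p = 0.0189), a call lost without low glucose replicate 3 (0.0634) or high glucose replicate 1 (0.0614).

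MERTK, a paralog of AXL, rose in MDA-MB-231 cells (0.16 ± 0.046, adjusted p = 0.022), a call lost without low glucose replicate 2 (0.0688) or high glucose replicate 2 (0.0545), 3 (0.0506) or 4 (0.0767). TYRO3, the third member of that receptor family, passed in neither line (adjusted p = 0.146 and 0.0596). Altogether 2 of 7 tested relatives rose and 1 fell in MDA-MB-231 cells, a count of 1 without high glucose replicate 3, and 3 of 8 fell and none rose in MDA-MB-468 cells. The shares of all genes that rose and fell were 5.71% and 9.37% in MDA-MB-231 cells, and 24.9% and 22.7% in MDA-MB-468 cells. After correction for transcript length, 5 relatives were called in MDA-MB-468 cells.

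Ligands and receptors of the members' products, 12 genes, fell in 5 of 11 tested and rose in none in MDA-MB-231 cells, and 4 rose and 4 fell of 11 in MDA-MB-468 cells. Of all genes, 9.37% fell and 5.71% rose in MDA-MB-231 cells, and 24.9% rose and 22.7% fell in MDA-MB-468 cells. GAS6, the ligand of AXL, fell in MDA-MB-231 cells from 10613 ± 566 to 9123 ± 281 (SD, n = 4, adjusted p = 0.000455). In MDA-MB-468 cells it was scarce, 41.2 ± 4.65 in low and 54.9 ± 6.56 in high glucose (SD, n = 4, adjusted p = 0.0439), a rise lost in 9 of 18 alternatives, among them leaving out low glucose replicate 1 (0.0981) or 2 (0.103) or high glucose replicate 1 (0.11), 2 (0.07) or 4 (0.106). LRP1, an endocytic receptor of thrombospondin 1 and CCN2, fell in MDA-MB-231 cells (-0.25 ± 0.045, adjusted p = 0.00105) and likewise in MDA-MB-468 cells (-0.41 ± 0.062, adjusted p = 4.53e-05). CD47, the thrombospondin receptor, fell in MDA-MB-468 cells (-0.24 ± 0.044, adjusted p = 0.000307) and had a log2 difference of -0.021 ± 0.048 in MDA-MB-231 cells (adjusted p = 0.828). ITGA6, an integrin subunit that CCN1 binds, fell in MDA-MB-231 cells (-0.19 ± 0.03, adjusted p = 0.000234) and rose in MDA-MB-468 cells (0.15 ± 0.031, adjusted p = 0.000903). SDC4, a syndecan coreceptor, rose in MDA-MB-468 cells (0.45 ± 0.035, adjusted p = 3.43e-08).

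Levels were also compared between the lines in low glucose, where 45.0% of 17115 genes were higher and 40.4% lower in MDA-MB-468 cells by limma, and 42.4% and 38.1% did not overlap in these directions. Of the members 8 were lower and 1 was higher, both by that limit and without overlap, and only YAP1 overlapped. Since the members were selected with these values known, nothing is read from these counts. YAP1 had means of 4575 and 4606 in low glucose, the first for MDA-MB-231 cells, a log2 difference of 0.0099 ± 0.028 (SE) that turned negative under TMM scaling, edgeR and DESeq2. The level in MDA-MB-231 cells was 6.82 times that in MDA-MB-468 cells for CCN1, 8.34 times for CCN2, 10.7 times for THBS1, 39.4 times for ANKRD1 and 739 times for AXL. AMOTL1, LATS2 and AJUBA were 2.05, 2.54 and 2.53 times as high there, and AMOTL2 was 1.46 times as high in MDA-MB-468 cells.

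The lines also differed in these markers of cell state. In low glucose the epithelial sum was higher and the mesenchymal sum lower in MDA-MB-468 cells, without overlap. CDH1 was at 4.29 to 6.71 in MDA-MB-231 cells against 1941 to 2062 in the other line. Other listed epithelial markers made up nearly all of the MDA-MB-231 sum of 27738 to 31031. VIM was at 15.8 to 26.9 and ZEB1 at 1.80 to 4.74 in MDA-MB-468 cells. SPARC and CDH2 were near 0 in both lines, so FN1 made up most of the MDA-MB-468 mesenchymal sum of 740.2 to 816. The part of this difference in the members' levels was not tested. ESR1, the gene of the estrogen receptor, had means of 1.31 and 57.9 in low glucose, the first for MDA-MB-231 cells.

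Per transcript length, in TPM (reads per kilobase of transcript, scaled to the same total in all libraries), the members of MDA-MB-231 low glucose ranked CCN1 (672 ± 1.79, SD, n = 4), AXL (597 ± 20.2), ANKRD1 (551 ± 19.8), CCN2 (545 ± 13.03), THBS1 (390.1 ± 12.3), YAP1 (119 ± 5.69), AJUBA (96.5 ± 1.68), AMOTL2 (72.4 ± 1.78), AMOTL1 (47.4 ± 0.943) and LATS2 (24.5 ± 1.67). The ranges of AXL, ANKRD1 and CCN2 overlapped with their neighbors and the others did not. In MDA-MB-468 low glucose the order was YAP1 (126 ± 4.59), AMOTL2 (112 ± 6.17), CCN1 (104 ± 2.57), CCN2 (68.9 ± 1.74), AJUBA (40.2 ± 1.32), THBS1 (38.6 ± 1.78), AMOTL1 (24.4 ± 0.784), ANKRD1 (14.7 ± 1.71), LATS2 (10.2 ± 0.985) and AXL (0.853 ± 0.118). There AMOTL2 overlapped with CCN1, and AJUBA with THBS1. In high glucose CCN1 was at 473 ± 9.14 and 68.9 ± 3.02 TPM, CCN2 at 376 ± 6.40 and 42.2 ± 2.52, and THBS1 at 271 ± 8.99 and 25.8 ± 0.932, with MDA-MB-231 cells first in each pair.

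Partner factors were compared in the same way. In MDA-MB-468 relative to MDA-MB-231 low glucose, WWTR1 and TEAD1 were lower (log2 differences -0.68 ± 0.025, adjusted p = 3.14e-14 and -1.08 ± 0.041, adjusted p = 5.31e-14), and TEAD2, TEAD3 and TEAD4 were higher (0.97 ± 0.046, adjusted p = 1.28e-12, 0.37 ± 0.053, adjusted p = 4.44e-06 and 0.60 ± 0.062, adjusted p = 7.32e-08). NF2 was higher in MDA-MB-468 cells (2.22 ± 0.074, adjusted p = 8.14e-15), LATS1 was lower (-1.09 ± 0.06, adjusted p = 1.18e-11) and FRMD6 was lower (-4.08 ± 0.045, adjusted p = 3.47e-21). GAS6 was at 10613 ± 566 normalized counts in MDA-MB-231 cells against 41.2 ± 4.65 in the other line, both in low glucose (SD, n = 4), so that AXL and its ligand were both abundant in the former and scarce in the latter. Among the other TEAD targets 11 of 16 were lower in MDA-MB-468 cells and 4 were higher, with a median log2 difference of -0.61 against 0.081 over all genes. Of all genes tested, 40.4% were lower and 45.0% higher. NT5E and MYOF were among the lower (-2.06 ± 0.027, adjusted p = 2.35e-20 and -1.18 ± 0.021, adjusted p = 1.91e-18) and IGFBP3 and TGFB2 among the higher (4.46 ± 0.027, adjusted p = 3.19e-24 and 0.77 ± 0.044, adjusted p = 1.9e-11). The largest differences of the list were those of RBMS3 (-8.12 ± 0.29) and FOXF2 (-2.47 ± 0.11) among the lower. Among the higher they were those of IGFBP3 and NUAK2 (1.10 ± 0.15). RBMS3 was near 0 in MDA-MB-468 cells.

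**Figure D3:**
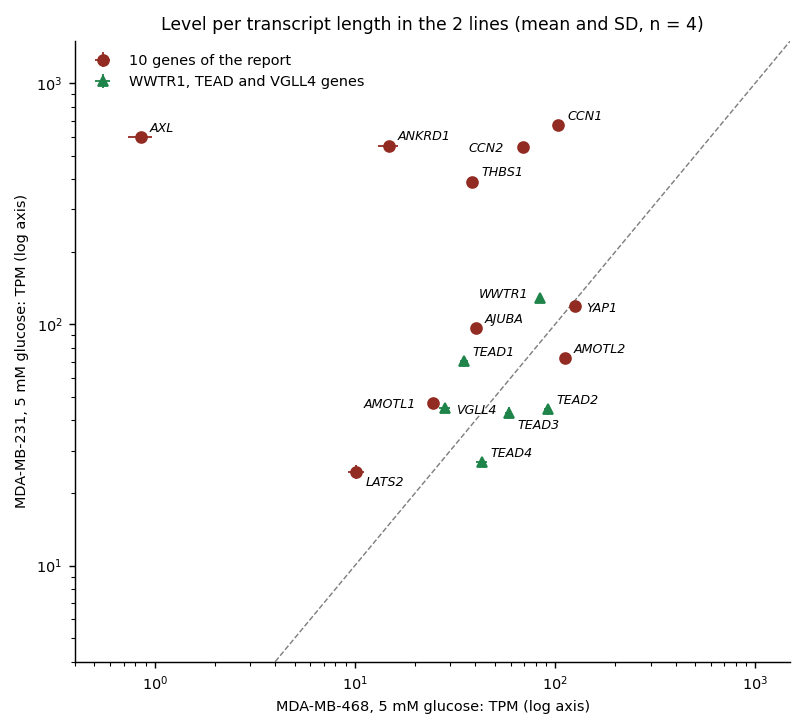
Level per transcript length of the 10 genes (circles) and of WWTR1, TEAD1 to TEAD4 and VGLL4 (triangles) in MDA-MB-468 (horizontal) and MDA-MB-231 cells (vertical) in 5 mM glucose, in TPM on log axes, with mean and SD of 4 replicates. The dashed line marks equal levels. YAP1 lies close to it, while CCN1, CCN2, THBS1, ANKRD1 and AXL lie far above it and AMOTL2 below it.

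Genes with profiles most like the 3 leading members were sought over the 16 samples, after each gene was standardized within its line, among 9878 genes that averaged 5 CPM or more in each line. The 5 highest Pearson correlations with the mean of CCN1, CCN2 and THBS1 were those of DUSP5 (0.984), a nuclear phosphatase of ERK, TFRC (0.983), the transferrin receptor, ATAD2 (0.983), a chromatin ATPase, ZFP36L1 (0.982), which promotes mRNA decay, and CRIM1 (0.980). All points share the glucose groups, so that a gene lower in high glucose in both lines scores high, and no test is attached. TFRC had 4226 ± 235 in low and 2185 ± 89.7 in high glucose in MDA-MB-231 cells and 7089 ± 94.3 in low and 6005 ± 118 in high glucose in MDA-MB-468 cells (normalized counts, SD, n = 4). DUSP5 had 3488 ± 69.97 in low and 2963 ± 41.4 in high glucose in MDA-MB-231 cells and 183 ± 4.63 in low and 134 ± 3.31 in high glucose in MDA-MB-468 cells (normalized counts, SD, n = 4). Among the other members ANKRD1 (0.957, rank 34) and AMOTL2 (0.946, rank 58) were close to the 3, LATS2 less so (0.836, rank 395), and YAP1 (0.12), AMOTL1 (0.091) and AJUBA (0.078) were far from them over both lines together. The log2 differences of YAP1, AMOTL1 and AJUBA had opposite signs in the 2 lines, which lowers a correlation over both. AXL averaged under 5 CPM in MDA-MB-468 cells and was not compared. CCN1 correlated with CCN2 at 0.979 and with THBS1 at 0.982, and CCN2 with THBS1 at 0.976.

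**Figure D4:**
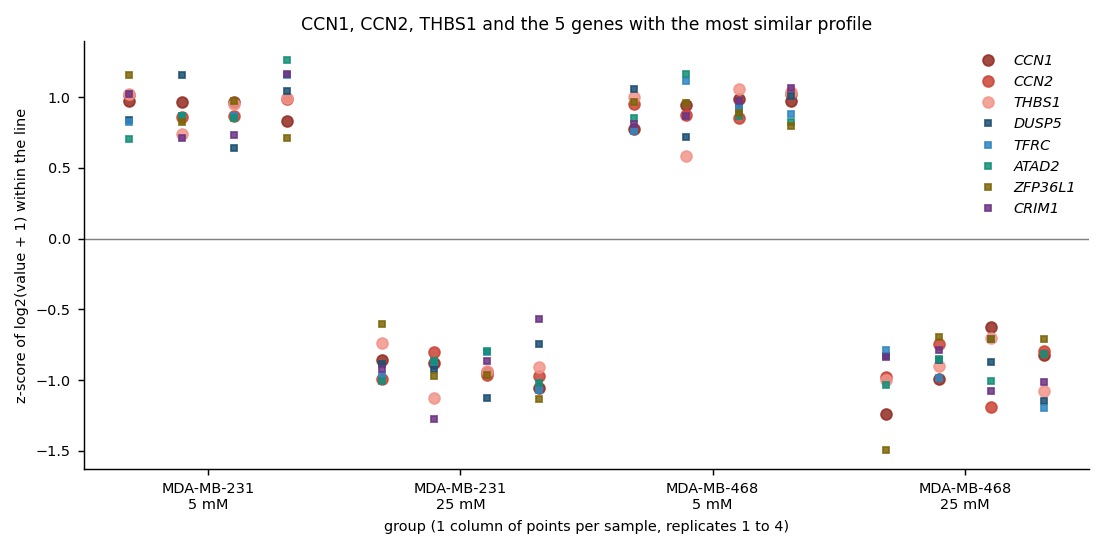
Standardized log2 values within each line (vertical axis, in SD units) of CCN1, CCN2 and THBS1 (circles) and the 5 genes with the most similar profile (squares) in the 16 samples (horizontal axis, by group and replicate). All 8 genes are above 0 in each 5 mM sample and below 0 in each 25 mM sample of both lines.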

How the data were processed

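RNA of 16 samples (2 lines, 2 glucose concentrations, 4 replicates each) was sequenced, and the authors deposited a table of read counts per Ensembl gene divided by size factors, a normalized signal. Per the study's methods, libraries were stranded, reads were trimmed and aligned to hg19 with TopHat, and genes with low counts were removed. The labels name hg38 and edgeR, and these builds were not reconciled. The counting tool and its use of strand are not given in the sources used here. Whole reads were recovered from the deposited values for 100% of them (within 0.001), giving 14094597 to 24425916 reads per library, and a floor of 3 reads is 0.123 to 0.213 CPM. Floors cover counting error only. Replicates of a group differed by more than sampling noise (mean chi-square per gene 2.03 to 5.20 in every pair), the fourth MDA-MB-231 low glucose replicate the most.

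Log2(value + 1) was tested with limma 3.58.1 (R 4.3.3) with a trended variance, per line for glucose and over all 4 groups for lines, on genes of at least 0.5 CPM in 2 samples. P-values were adjusted by Benjamini-Hochberg over all genes tested, with 0.05 as limit, and fold changes on this scale understate those of low genes. On simulated counts with 200 genes changed 2-fold, drawn among genes with over 50 reads in the changed samples, limma recovered 200 in each line and between lines and 187 for the difference of responses (16 false calls). A first draw, on the mean over all samples, had put changes into genes with few or no reads in those samples and recovered 175 for the difference of responses. Alternatives were pseudocounts of 0.5 and 10, filters (none, or 1 CPM in 4 samples), TMM and quantile scaling, edgeR 4.0.16 and DESeq2 1.42.0 on recovered reads, a replicate block, a transcript length correction and leaving out each replicate. Symbols matched 17647 of 18332 genes in GENCODE 44 lifted to GRCh37 (hg19), which gave positions and lengths. The TPM values were computed from the recovered reads. Promoters came from RefSeq on GRCh38.p14. The 10 members and all lists were chosen with earlier results of these data known. Genes were named by rule: all members, and in each other list and comparison the 2 largest rises and falls among calls with at least 5 CPM, plus WWTR1, TEAD1 to TEAD4, LATS1, NF2 and GAS6. In the text some of these are given as values only. Not every gene is given for the comparison in which the rule named it. Several of the line difference, among them ITGB3, are left out there. The line differences of NT5E, MYOF and TGFB2 are shown although the rule named these genes in other comparisons.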

Additional observations from a re-analysis of the deposited data

Results flagged for a closer look

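A sample stood apart from the other 3 of its group, by Dixon's test at the 95% level, in 17 of the 236 groups of 4 checked over the members and the 49 named list genes, where chance gives about 1 in 20. Of the members, CCN1 stood at 10675 in MDA-MB-231 low glucose replicate 4, where the other 3 samples lay between 10949 and 10967. CCN2 stood at 6408 in MDA-MB-231 high glucose replicate 2, where the other 3 samples lay between 6173 and 6201. THBS1 stood at 1900.0 in MDA-MB-468 low glucose replicate 2, where the other 3 samples lay between 2060.0 and 2082. ANKRD1 stood at 6379 in MDA-MB-231 high glucose replicate 3, where the other 3 samples lay between 6172 and 6207. YAP1 stood at 4807 in MDA-MB-231 low glucose replicate 4, where the other 3 samples lay between 4487 and 4509. The 5 values come from 4 different replicates, and none moves its group across the other glucose group. Of the list genes the values were ASAP1 at 1728 in MDA-MB-468 high glucose replicate 2 (the others 1543 to 1571), NT5E at 8494 in MDA-MB-231 high glucose replicate 4 (the others 8682 to 8709), VGLL3 at 173 in MDA-MB-231 high glucose replicate 1 (the others 182 to 184), FRMD6 at 5125 in MDA-MB-231 high glucose replicate 4 (the others 5336 to 5374), TAOK3 at 968 in MDA-MB-468 high glucose replicate 4 (the others 1039 to 1043), WWC2 at 1256 in MDA-MB-231 high glucose replicate 4 (the others 1178 to 1189), FLNA at 41491 in MDA-MB-468 low glucose replicate 2 (the others 44313 to 44512) and ITGA6 at 3567 in MDA-MB-468 high glucose replicate 2 (the others 3369 to 3392). Near 0, single libraries held 3 reads or fewer where the other 3 had none: RBMS3 at 0.972 in MDA-MB-468 high glucose replicate 1, VGLL3 at 0.875 in MDA-MB-468 low glucose replicate 3, WWC2 at 1.75 in MDA-MB-468 low glucose replicate 3 and MYL9 at 3.43 in MDA-MB-468 high glucose replicate 3. Where the other 3 values are 0, any read is flagged, so these flags cannot be set against 1 in 20.

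By normalized counts, AMOTL1 was lower in high glucose in every MDA-MB-231 sample and higher in every MDA-MB-468 sample, with the log2 difference 0.33 larger in MDA-MB-468 cells. This difference was not tested, since AMOTL1 was chosen on these values. On the TPM scale its MDA-MB-468 groups overlapped, at 24.4 ± 0.784 in low and 24.8 ± 0.906 in high glucose (SD). Among the named list genes, the glucose response differed between the lines for 30 by limma with an adjusted p under the limit. Of all 17115 genes tested, 30.9% passed that limit. Several of the named genes were picked as the largest calls in this same comparison, so nothing is read from their count. The MDA-MB-468 response minus the MDA-MB-231 response, on the log2 scale, was negative for CCN3 (-0.92), NT5E (-0.84), TPM1 (-0.59), MYOF (-0.52), TGFB2 (-0.50), TAOK3 (-0.40), THBS3 (-0.40), STK4 (-0.31), TEAD1 (-0.26), SAV1 (-0.24), CD47 (-0.22), CRIM1 (-0.21) and WWC1 (-0.13). It was positive for FOXF2 (0.75), WTIP (0.71), GAS6 (0.62), FJX1 (0.55), SDC4 (0.44), FHL2 (0.41), MAP4K4 (0.40), TEAD2 (0.39), ITGA6 (0.34), LATS1 (0.34), FRMD6 (0.31), TYRO3 (0.30), ACTB (0.27), IGFBP3 (0.24), SRF (0.24), ACTG1 (0.22) and VCL (0.19). The calls for SAV1 and CD47 were lost when single replicates of either line were left out, in 8 and 7 of 26 alternatives, with adjusted p = 0.0516 to 0.0656 and 0.0522 to 0.0636, and quantile scaling turned the value of ACTG1 negative. The call for WWC1 was lost with DESeq2 (0.0719) and after correction for transcript length (0.0577), and that for SRF under quantile scaling (0.0518).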

How the results depend on the processing

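The directions of the members' glucose differences held in both lines under all 18 alternatives per line, and the numbers of genes called in each comparison, over all genes and over the list of other TEAD targets, stayed within 1.5 times. The TPM scale is not among these alternatives. On it, YAP1 in MDA-MB-468 cells was 126 ± 4.59 in low and 125 ± 5.33 in high glucose (SD). AMOTL1 was 24.4 ± 0.784 and 24.8 ± 0.906 there, so the direction of neither gene is settled in that line. Leaving out 1 replicate gave 1629 to 2389 calls in MDA-MB-231 and 6759 to 7398 in MDA-MB-468 cells. The responses of CCN1 and THBS1 could not be told apart between lines: THBS1 turned to -0.0016 under quantile scaling and ranged from -0.0155 to 0.0340 without single replicates, and CCN1 from -0.0394 to 0.0189. The line difference of YAP1, 0.0099, was -0.0207 under TMM, -0.0209 under edgeR and -0.0132 under DESeq2, ranged from -0.0059 to 0.0339 without single replicates, and was 0.18 under quantile scaling, so its sign is not settled at this precision. Quantile scaling gave 0 for ACTB in MDA-MB-231 cells, and moved ACTG1 to -0.0821 in MDA-MB-468 cells, -0.1192 for the difference of responses and 0.0174 between lines, and FHL2 to 0.0075 between lines. The cause was not tested. Same-numbered samples did not deviate together (correlations -0.034 to 0.031), and the labels do not say whether equal numbers mark a pair. A fit with a replicate block gave 1624 calls in MDA-MB-231 (2245 without), 7383 in MDA-MB-468, 5062 for the difference of responses and 14567 between lines. AXL in MDA-MB-468 cells, at 15 to 31 counts, is limited by depth.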
